A study of Rattus norvegicus with 10 samples.

Results

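The genes described here encode heat shock proteins, their partner proteins and the chaperones and stress sensors of the endoplasmic reticulum (ER). They are 45 rat genes listed by function. The rule for the list uses no measured value, although earlier results of these data were known when it was drawn up. A row of the count table could be matched to 42 of the 45 genes, and 41 of these passed the filter on low counts, among 22431 rows tested in all. No row was matched to Hspa1b, Dnajb1 or Manf. Trib3, with 30 counts over all rats, fell under the minimum total of 44.

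Chaperones hold unfolded proteins, help them to fold and pass damaged ones on for removal. In the cytosol, heat shock factors switch on the HSP70, HSP90 and small heat shock protein genes when proteins unfold. In the ER, the sensors IRE1, PERK and ATF6 detect unfolded proteins and start the unfolded protein response, which raises ER chaperones and, when stress lasts, the death-linked factor CHOP. Both responses are well known in the brain after acute injury.

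Messenger RNA was sequenced from the left hippocampus, from tissue holding the CA3 field and the dentate gyrus, of adult male Sprague-Dawley rats. The TBI group (n = 5) had a left craniectomy of 5 mm and 1 lateral fluid percussion impact of 3.32 atm. The sham group (n = 5) had the same anaesthesia and surgery with no impact, so any effect of the craniectomy was shared by both groups. Tissue was taken 3 months after surgery. The rats weighed 330 to 371 g at injury, and their age is not given in the sources used here. The study's methods say that TBI rats were not monitored by EEG, so which of them had seizures is unknown. The methods add that these rats showed no seizures on handling. They also cite earlier data in which only a minority of such rats had epilepsy by this time. Each library was 1 rat, and no library was pooled.

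Total counts on RNA rows ranged from 23425817 to 31671838 per library. Ribosomal RNA took 59.0% and 58.5% of the counts in sham replicates 4 and 5, and 12.5% to 26.2% in the other 8 rats, so this share differed along with the groups. Neuronal markers were present in every library, and none of the marker genes measured was at 0 in any rat. In whole tissue, a change in the number of cells of a type and a change in RNA per cell cannot be told apart. Levels are given as CPM, the count scaled by edgeR to the library size after trimmed mean (TMM) normalization. CPM is not corrected for transcript length, so levels are compared between rats and not between genes.

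Promoters of 33 of the 45 genes were found in RefSeq's sequences for the GRCr8 assembly, as windows from 250 bases before to 50 bases after the gene's start. They were searched on both strands for 2 motifs: the core of the heat shock element, GAANNTTC, where heat shock factors bind, and the ER stress response element, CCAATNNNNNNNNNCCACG. The heat shock core was in 10 of the 33 promoters (30.3%) and in 8.34% of all 27457 promoters. It was in the promoters of Hspb8, Bag3, Hsph1, Hspa8, Hspa9, Hspd1, Hspe1, Dnaja1, Dnajb1 and P4hb. Hspd1 and Hspe1 are neighbours on opposite strands of chromosome 9, their windows overlapped by 211 bases, and the core was the same stretch of DNA in both. The ER element was in 6 of the 33 promoters (18.2%), those of Hspa5, Hsp90b1, Calr, Canx, Dnajc3 and Xbp1, and in 0.0765% of all promoters. The number of member promoters holding both motifs was 0. These matches describe letters in the windows, and binding was not measured. Both motifs were picked for the stress responses by which the genes were listed, so the shares are a description and no test. The heat shock core was searched only with its outer base triplets in the order given. The opposite order was not searched for. It occurs in the windows of Hspa2 and Stip1, among others, and these members were counted as without the core. The shares above therefore hold for the order searched and not for heat shock elements of every arrangement.

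The 250 bases before the start are shown for Hspb8 and Bag3, the members with the smallest p values, for Hsph1, which holds the same kind of core, and for Hspa5, the main ER chaperone gene. They are the + strand of chr12:45837058-45837307, chr1:192533210-192533459, chr12:10427118-10427367 and chr3:38452766-38453015, written 5′ to 3′, with the motif in capitals. The first base of the motif lay 23 bases before the start in Hspb8, 132 in Bag3, 31 in Hsph1 and 43 in Hspa5.
Hspb8: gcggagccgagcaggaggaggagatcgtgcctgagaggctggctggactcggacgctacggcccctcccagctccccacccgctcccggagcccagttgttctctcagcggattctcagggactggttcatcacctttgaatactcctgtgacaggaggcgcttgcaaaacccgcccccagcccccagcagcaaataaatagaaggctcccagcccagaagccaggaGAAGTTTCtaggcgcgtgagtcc
Bag3: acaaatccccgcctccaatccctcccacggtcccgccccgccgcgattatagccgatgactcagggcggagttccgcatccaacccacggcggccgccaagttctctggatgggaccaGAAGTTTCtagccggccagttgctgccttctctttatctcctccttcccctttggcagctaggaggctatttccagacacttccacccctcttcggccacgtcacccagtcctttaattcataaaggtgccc
Hsph1: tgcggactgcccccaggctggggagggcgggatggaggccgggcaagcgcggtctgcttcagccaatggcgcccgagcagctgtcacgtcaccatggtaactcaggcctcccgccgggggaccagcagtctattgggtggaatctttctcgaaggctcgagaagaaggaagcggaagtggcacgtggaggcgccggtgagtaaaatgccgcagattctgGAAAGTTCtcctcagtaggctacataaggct
Hspa5: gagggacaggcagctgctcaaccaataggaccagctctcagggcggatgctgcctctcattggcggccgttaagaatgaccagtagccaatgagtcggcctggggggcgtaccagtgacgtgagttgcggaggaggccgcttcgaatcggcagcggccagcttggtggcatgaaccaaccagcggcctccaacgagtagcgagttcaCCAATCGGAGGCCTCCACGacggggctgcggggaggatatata

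The comparison of TBI with sham rats asked whether these stress genes still differed in the hippocampus 3 months after injury. At the loosest threshold used, 37 of 41 did not pass. Hspb8, Bag3 and Hspa2 were higher in TBI at an unadjusted p under 0.05, and Hspa12a was lower, in edgeR's quasi-likelihood test. Thus 3 of 41 members (7.32%) were higher, beside 4.89% of all rows, and 1 of 41 (2.44%) was lower, beside 3.00% of all rows. No member reached an unadjusted p of 0.001, which 0.196% of all rows did. After Benjamini-Hochberg adjustment 0 members passed 0.05 in edgeR's quasi-likelihood test, in its exact test and in DESeq2, and 0% of all rows passed in the first of these. In DESeq2, 3 of the 22431 rows passed. The smallest adjusted p of a member was 0.485 in edgeR's quasi-likelihood test, 0.242 in its exact test and 0.273 in DESeq2.

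The number of members at an unadjusted p under 0.05 was 4, and it depended on single rats. The share of all rows called depended on them too. Leaving out sham replicate 1, sham replicate 2 or TBI replicate 5 lowered it to 2 (4.88%), Hspb8 and Bag3, beside 8.39%, 5.19% and 6.51% of all rows in these fits. Leaving out sham replicate 3 raised it to 9, with Hsph1, Hspd1, Cryab, Stip1 and Sdf2l1 added, 9 of 41 beside 11.5% of all rows. With the ribosomal RNA share as a covariate it was 2, namely Hspa12a and Cryab, or 4.88% beside 4.42% of all rows. Scaled by the total count outside ribosomal RNA, 5 members were higher (12.2%, beside 12.5% of all rows) and 0 lower (beside 0.464%). That scaling moved the median log2 fold change of all rows from -0.01 to 0.14, a shift of 0.15, and that of the members from -0.06 to 0.09. Of the 41 members, 12 had a log2 fold change above 0 and 29 below it, with a range from -0.25 to 0.44 and a median standard error of 0.08. In 0 of 41 members did the values of the groups fail to overlap, beside 0.923% of all rows.

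**Figure D1:**
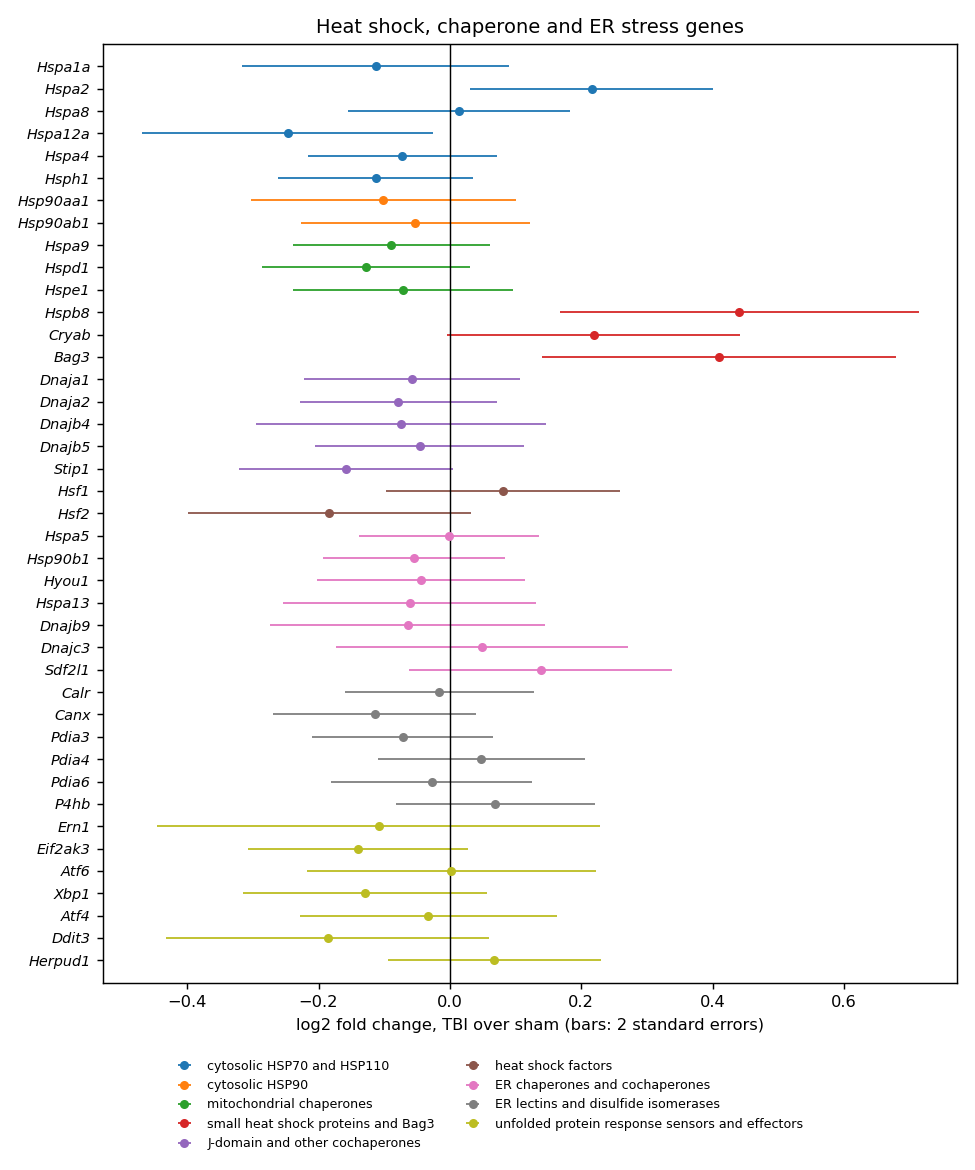
Log2 fold change of TBI over sham for the 41 members tested (x axis), with bars of 2 standard errors from edgeR's quasi-likelihood fit and colours for the role of each gene. Hspb8 and Bag3 lay farthest to the right, at 0.44 and 0.41, and the bars of 37 members crossed 0.

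The group with the highest values was that of the small heat shock proteins and Bag3, with a median log2 fold change of 0.41 and all 3 members above 0. Hspb8 encodes a small heat shock protein that works with the cochaperone BAG3 to send damaged proteins to autophagy. Hspb8 was at 12.0, 11.8, 12.4, 11.0 and 10.2 CPM in sham replicates 1 to 5, and at 20.2, 17.7, 10.7, 13.4 and 16.0 CPM in TBI replicates 1 to 5. Of the TBI rats, 4 lay above every sham rat, while TBI replicate 3 lay inside the sham range. The log2 fold change was 0.44 ± 0.14 (SE, edgeR unadjusted p = 0.00496, adjusted p = 0.485), and a two-sided exact permutation test of the group means gave p = 0.0556. The smallest p that this test can give with 5 against 5 rats is 0.00794. The study lists Hspb8 among the genes altered in this model, at a cut-off of p under 0.001 in edgeR. The p of 0.00496 in the quasi-likelihood test here did not reach that cut-off. The study also gives a smaller number of controls for its mRNA profiling than the labels do. Its list was made on rats of this series and is no independent evidence.

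Bag3 was at 12.4, 9.56, 13.7, 10.8 and 12.1 CPM in the sham rats, and at 19.1, 16.5, 13.6, 11.1 and 17.6 CPM in the TBI rats. TBI replicates 1, 2 and 5 lay above every sham rat, and replicates 3 and 4 lay inside the sham range. Its log2 fold change was 0.41 ± 0.13 (SE, edgeR unadjusted p = 0.00723, adjusted p = 0.487, exact permutation p = 0.0556). Hspb8 and Bag3 kept an unadjusted p under 0.05 in all 10 fits that left out 1 rat. With the ribosomal RNA share as a covariate, the log2 fold change was 0.36 for Hspb8 (edgeR unadjusted p = 0.054) and 0.37 for Bag3 (edgeR unadjusted p = 0.0527), so neither passed. With sham replicates 4 and 5, the libraries rich in ribosomal RNA, left out, both passed.

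Cryab encodes αB-crystallin, a small heat shock protein abundant in glia. Its values were 23.4, 32.9, 39.5, 37.2 and 33.7 CPM in the sham rats and 41.7, 37.1, 34.8, 41.2 and 38.9 CPM in the TBI rats. Sham replicate 1 was lowest, and TBI replicates 1 and 4 lay above every sham rat. The log2 fold change of 0.22 ± 0.11 (SE) missed the threshold (edgeR unadjusted p = 0.0653). It passed in 6 of 20 alternative fits, among them those without sham replicate 3 (edgeR unadjusted p = 0.0193) and without TBI replicate 3 (edgeR unadjusted p = 0.0454).

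**Figure D2:**
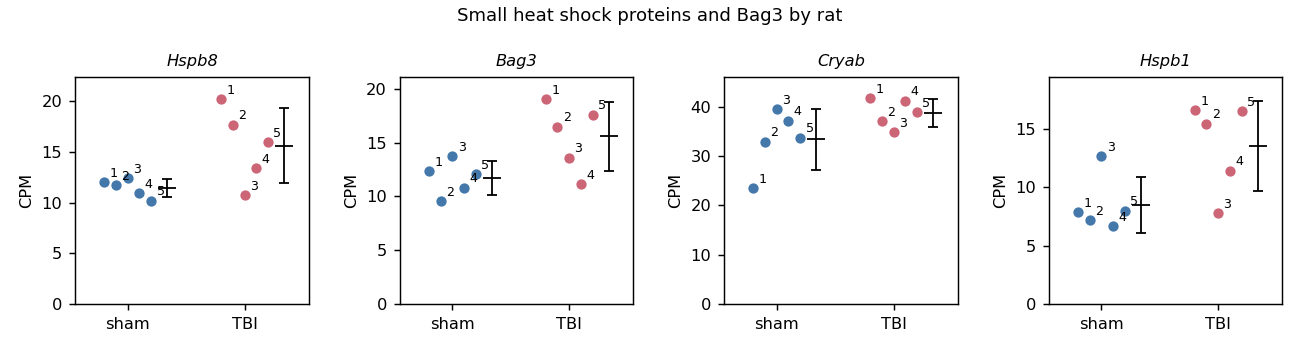
CPM (y axis, from 0) of Hspb8, Bag3, Cryab and the related Hspb1 in each of 5 sham and 5 TBI rats, numbered by replicate, with the mean and SD of each group as a black bar. TBI replicates 1 and 2 were the highest for Hspb8, and TBI replicate 3 lay inside the sham range for all 4 genes.

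Hspb8 and Bag3 were both high in TBI replicates 1, 2 and 5. Over the 10 rats their log2 CPM had a Pearson r of 0.796 (permutation p = 0.00696, adjusted over 7 pairs 0.0487) and a Spearman rho of 0.673 (permutation p = 0.0391, adjusted 0.216). Without TBI replicates 1 and 2, the rats farthest from the median of Hspb8, r was 0.562 (permutation p = 0.148), so the relation did not pass without those rats. With group means removed r was 0.646 (permutation p = 0.0428), and without the sham rats rich in ribosomal RNA it was 0.782 (permutation p = 0.0242), both unadjusted. None of the other 6 pairs passed. Hspb8 and Cryab had an r of 0.434 and a rho of 0.624 (permutation p = 0.213 and 0.0618).

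Some astrocyte markers were also higher in TBI. Of 6 astrocyte markers measured, 2 were higher at an unadjusted p under 0.05, Gfap and Aldh1l1, and 0 were lower. Over all rows, 4.89% were higher and 3.00% lower. The glutamate transporter genes Slc1a3 and Slc1a2 had log2 fold changes of -0.00094 and 0.06 (edgeR unadjusted p = 0.991 and 0.586), and Aqp4 and Gja1 had 0.53 and 0.17 (edgeR unadjusted p = 0.0539 and 0.0677). Gfap, the intermediate filament of astrocytes, ranged from 776 to 1628 CPM in sham rats and from 980 to 2308 CPM in TBI rats. The summed level of the 6 markers, to which Gfap contributes most, ranged from 1626 to 2476 CPM in sham rats and from 1790 to 3348 CPM in TBI rats. An astrocyte score, the mean of the markers' log2 CPM centred on each gene, was -0.25, -0.17, 0.10, -0.18 and -0.24 in the sham rats and 0.44, 0.35, -0.18, 0.06 and 0.07 in the TBI rats. The TBI rats had the same order in this score as in Hspb8, with replicate 1 highest and replicate 3 lowest.

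Hspb8 followed the astrocyte score with r = 0.927 (permutation p = 0.00021) and rho = 0.842 (permutation p = 0.00372) over 10 rats. Adjusted over the 3 pairs that were added after the values had been seen, these were 0.00063 and 0.0112. Without TBI replicates 1 and 2, r was 0.755 (permutation p = 0.0241). With group means removed it was 0.877, and without the ribosome-rich sham rats 0.910. For Bag3, r was 0.755 (permutation p = 0.0139, adjusted 0.0208) and rho was 0.612 (permutation p = 0.0689, adjusted 0.103). Without sham replicate 2 and TBI replicate 1, the r of Bag3 was 0.617 (permutation p = 0.114), so that relation did not pass without those rats. Microglial markers also ran higher, 4 of 8 (Aif1, C1qa, C1qb and Tyrobp) at an unadjusted p under 0.05, beside 4.89% of all rows. The others, Cx3cr1, Csf1r, Tmem119 and P2ry12, did not pass, with log2 fold changes from 0.18 to 0.27. The summed level of the 8 was 170.5 to 283 CPM in sham and 210 to 303 CPM in TBI rats. No correlation with the score of another cell type was run. In TBI replicates 1 to 5 the microglial score, made the same way, was 0.287, 0.323, -0.184, 0.218 and 0.196. That of endothelium and pericytes was 0.257, 0.0869, -0.0853, -0.0354 and 0.0598. Replicate 3 was lowest in both, as in Hspb8 and the astrocyte score. In the other marker lists a different TBI rat was lowest. The part of any cell type in the values of Hspb8 and Bag3 was not tested.

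**Figure D3:**
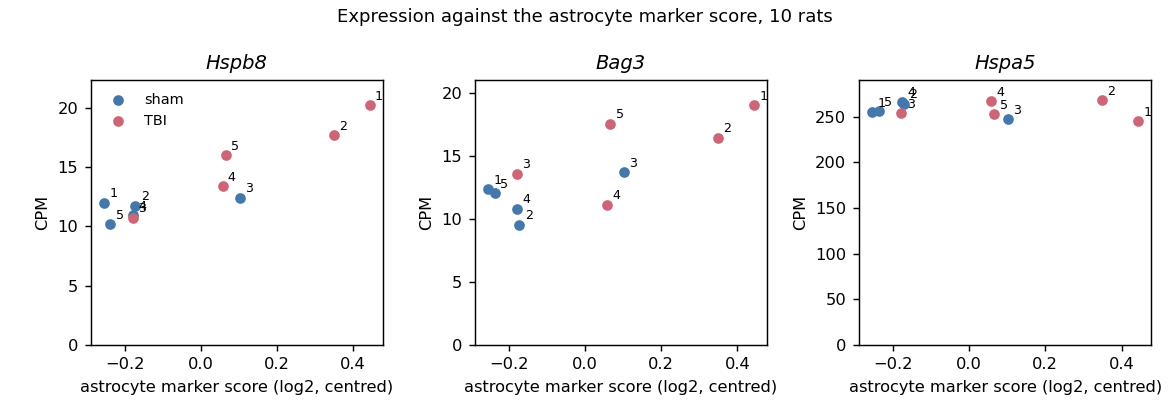
CPM (y axis, from 0) of Hspb8, Bag3 and Hspa5 against the astrocyte marker score (x axis, log2 units centred on 0) in 5 sham and 5 TBI rats, numbered by replicate. Hspb8 was highest in TBI replicates 1 and 2, which had the highest scores of 0.44 and 0.35, while Hspa5 stayed between 245 and 268 CPM in all 10 rats.

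Among the cytosolic HSP70 and HSP110 genes, 1 of 6 tested was higher and 1 was lower at an unadjusted p under 0.05. Over all rows, 4.89% were higher and 3.00% lower. Hspa2, an HSP70 gene best known from the testis, was at 18.1, 19.8, 24.2, 18.5 and 20.3 CPM in the sham rats and at 26.2, 23.6, 20.7, 22.7 and 24.3 CPM in the TBI rats. Sham replicate 3 lay among the TBI rats and the groups overlapped. The log2 fold change was 0.22 ± 0.09 (SE, edgeR unadjusted p = 0.0313, adjusted p = 0.589). The p rose above 0.05 without sham replicate 1 (0.0899), sham replicate 2 (0.0553), sham replicate 4 (0.084), TBI replicate 1 (0.0835) or TBI replicate 5 (0.0572), by edgeR in each case. It was 0.163 with the ribosomal RNA share as a covariate and 0.112 without the sham rats rich in ribosomal RNA.

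Hspa12a, a distant HSP70 relative, was at 244, 201, 161, 179 and 144 CPM in the sham rats and at 151, 166, 154, 164 and 149 CPM in the TBI rats. All TBI values lay inside the sham range, in which replicates 1 and 2 were highest. The log2 fold change was -0.25 ± 0.11 (SE, edgeR unadjusted p = 0.039, adjusted p = 0.620, exact permutation p = 0.135). Without sham replicate 1 the log2 fold change was -0.13 (edgeR unadjusted p = 0.151). The p also rose above 0.05 without sham replicate 2 (0.0871), TBI replicate 1 (0.0746), TBI replicate 3 (0.065) or TBI replicate 5 (0.0777), and scaled by the total count outside ribosomal RNA (0.458). Other fits moved it the other way. The log2 fold change was -0.40 with the ribosomal RNA share as a covariate (edgeR unadjusted p = 0.00609). It was -0.36 without the sham rats rich in ribosomal RNA (edgeR unadjusted p = 0.00607) and -0.33 without sham replicate 5 (edgeR unadjusted p = 0.00481).

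Hspa8, the constitutive HSP70 of the cytosol, ranged from 130.3 to 181 CPM in sham rats and from 161 to 170.1 CPM in TBI rats, with a fold of 1.01 and an interval of 2 standard errors from 0.898 to 1.14. Hspa1a, the stress-induced HSP70 and a near-identical copy of Hspa1b, was at 15.1 CPM ± 1.95 (SD, n = 5) in sham and 14.0 CPM ± 1.26 (SD, n = 5) in TBI rats. All later SDs are over 5 rats. How reads shared by the 2 copies were counted is not stated, so this value is uncertain. Hsph1, an HSP110 that exchanges nucleotide on HSP70, was at 239, 234, 195.7, 229.6 and 234 CPM in sham rats and from 199 to 214 CPM in TBI rats. Sham replicate 3 lay below every TBI rat, and the other sham rats lay above every TBI rat. The log2 fold change of -0.11 ± 0.07 (SE, edgeR unadjusted p = 0.146) became -0.16 without that rat (edgeR unadjusted p = 0.0412).

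The HSP90 genes and the J-domain cochaperones all had log2 fold changes below 0, and none passed, beside 3.00% of all rows lower. Hsp90aa1, the inducible cytosolic HSP90, ranged from 218 to 278 CPM in sham rats and from 186 to 274 CPM in TBI rats, with a log2 fold change of -0.10 ± 0.10 (SE). Hsp90ab1, the constitutive form, was at 1068 CPM ± 107 (SD) in sham and 1030 CPM ± 71.0 (SD) in TBI rats. Stip1 links HSP70 to HSP90. It had the lowest value among the 5 J-domain and other cochaperone genes tested, with a log2 fold change of -0.16 ± 0.08 (SE, edgeR unadjusted p = 0.067). The other 4, Dnaja1, Dnaja2, Dnajb4 and Dnajb5, deliver unfolded proteins to HSP70 and ran from -0.08 to -0.05 on the log2 scale. The signs depended on the scaling: with the total count outside ribosomal RNA, 0 of 2 HSP90 genes and 1 of 5 cochaperones were below 0, while 2 of 2 and 5 of 5 were still below the median of all rows.

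The mitochondrial chaperones Hspa9, Hspd1 and Hspe1 import and fold proteins in the matrix, and their log2 fold changes were -0.09, -0.13 and -0.07. Hspd1, whose product forms the chaperonin ring, was at 85.6, 92.8, 73.5, 86.2 and 85.0 CPM in sham rats and from 70.0 to 83.4 CPM in TBI rats. Without sham replicate 3, its lowest sham rat, the edgeR unadjusted p of 0.123 became 0.041. With the total count outside ribosomal RNA, 0 of the 3 mitochondrial genes were below 0 and all 3 were below the median of all rows. Of the heat shock factors, Hsf1, the main activator of heat shock genes, was at 23.1 CPM ± 2.78 (SD) in sham and 24.5 CPM ± 1.57 (SD) in TBI rats (edgeR unadjusted p = 0.375). Hsf2 was at 12.1 CPM ± 1.67 (SD) in sham and 10.6 CPM ± 1.20 (SD) in TBI rats (edgeR unadjusted p = 0.105).

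The ER chaperones, lectins and disulfide isomerases had similar levels in both groups. None of the 13 tested passed at an unadjusted p under 0.05, beside 4.89% of all rows higher and 3.00% lower. The smallest p of the 13 was 0.155 in edgeR. Their folds ran from 0.924 to 1.10, and their intervals of 2 standard errors, which all held 1, ran from 0.828 to 1.26. Hspa5 encodes BiP, the HSP70 of the ER that keeps the stress sensors off. It was at 255, 264, 247, 266 and 256 CPM in sham rats and 245, 268, 254, 267 and 253 CPM in TBI rats. The groups covered nearly the same range, with a log2 fold change of -0.0016 ± 0.069 (SE) and a coefficient of variation of 3.02% in sham and 3.79% in TBI rats. The median coefficient over the 41 members was 8.80% in sham and 7.42% in TBI rats.

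Hsp90b1 encodes GRP94, the HSP90 of the ER. It ranged from 189 to 205 CPM in sham and from 179 to 203 CPM in TBI rats, with a log2 fold change of -0.05 ± 0.07 (SE). Calr, the calcium-binding lectin calreticulin, was at 372 CPM ± 21.5 (SD) in sham and 368 CPM ± 10.6 (SD) in TBI rats. Pdia4, a disulfide isomerase, was at 23.1 CPM ± 0.777 (SD) in sham and 23.9 CPM ± 2.11 (SD) in TBI rats. Sdf2l1, a partner of BiP that is induced by ER stress, was at 11.6, 12.6, 16.9, 13.4 and 13.0 CPM in sham rats and 13.9, 15.9, 15.1, 14.8 and 14.5 CPM in TBI rats. All TBI rats lay above the 4 sham rats other than replicate 3, which was the highest of all 10. Its log2 fold change was 0.14 ± 0.10 (SE, edgeR unadjusted p = 0.183).

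**Figure D4:**
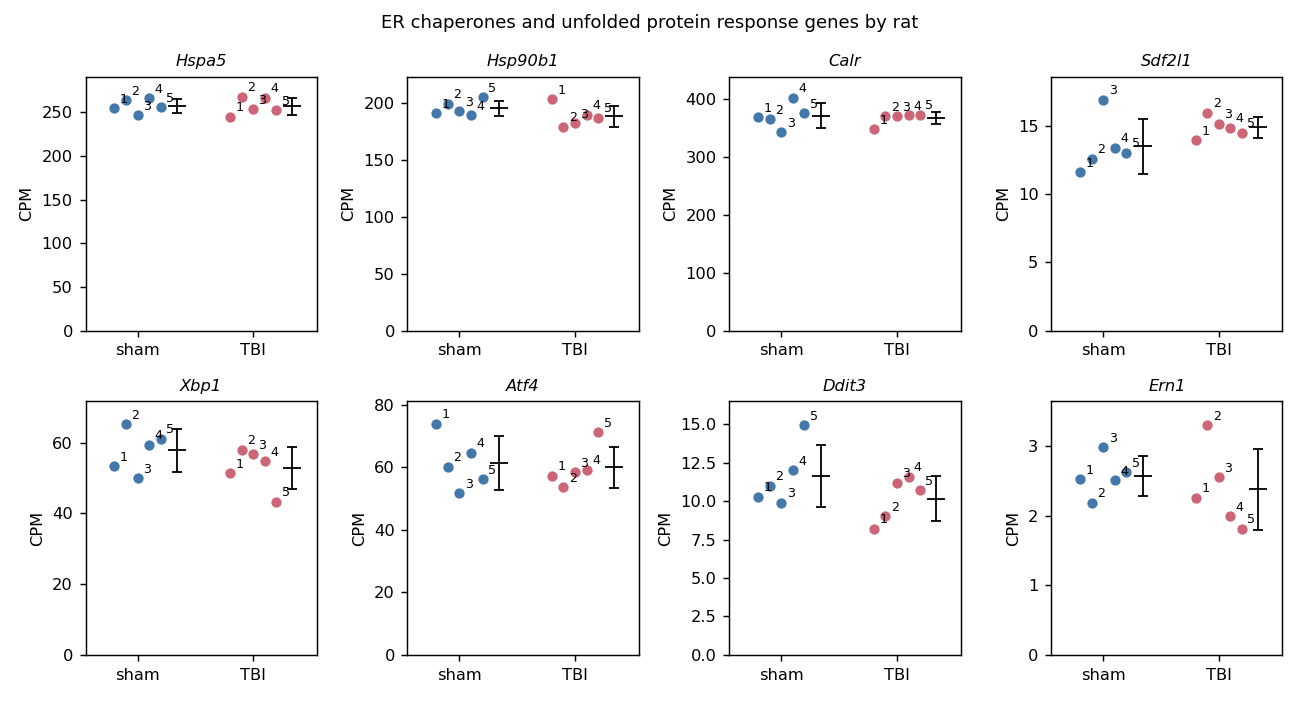
CPM (y axis, from 0) of 4 ER chaperone genes (top) and 4 unfolded protein response genes (bottom) in each of 5 sham and 5 TBI rats, numbered by replicate, with the mean and SD of each group as a black bar. The groups overlapped in all 8 genes, and Hspa5 stayed between 245 and 268 CPM.

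Of the sensors and effectors of the unfolded protein response, 0 of 7 tested passed at an unadjusted p under 0.05. Over all rows, 4.89% were higher and 3.00% lower. The smallest edgeR p of the 7 was 0.111. Their folds ran from 0.879 to 1.05 and the intervals from 0.734 to 1.17. Ern1 encodes the sensor IRE1 and was the tested member with the fewest counts, 735 over all rats. It was at 2.57 CPM ± 0.286 (SD) in sham and 2.38 CPM ± 0.583 (SD) in TBI rats. The PERK gene Eif2ak3 had a log2 fold change of -0.14 ± 0.08 (SE, edgeR unadjusted p = 0.111), and the sensor gene Atf6 one of 0.00 ± 0.11 (SE). Xbp1, whose transcript IRE1 splices, ranged from 50.0 to 65.3 CPM in sham and from 43.3 to 58.0 CPM in TBI rats. Spliced and unspliced Xbp1 were not told apart by these counts.

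Atf4, the factor translated when PERK is active, ranged from 51.8 to 74.0 CPM in sham rats and from 53.7 to 71.2 CPM in TBI rats. Ddit3, which encodes CHOP, was at 10.3, 11.0, 9.91, 12.0 and 14.9 CPM in sham rats and 8.21, 9.02, 11.2, 11.6 and 10.7 CPM in TBI rats. TBI replicates 1 and 2 were lowest, and the log2 fold change was -0.19 ± 0.12 (SE, edgeR unadjusted p = 0.147). A second row of Ddit3, which shares reads with the first, gave -0.03 (edgeR unadjusted p = 0.811). Trib3, a target of CHOP, had 1 to 6 counts in every rat. Herpud1, an ER degradation factor, was at 30.4 CPM ± 2.04 (SD) in sham and 31.9 CPM ± 2.81 (SD) in TBI rats.

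The heat shock core, in the order searched, was in 9 tested members. Of these, Hspb8 and Bag3 were higher at an unadjusted p under 0.05, beside 4.89% of all rows. The log2 fold changes of the 9 ran from -0.13 to 0.44. Hspa2, which was also higher, is outside the 9, although its window holds the opposite order of the core's triplets. Of 6 with the ER element, 0 were called, beside 4.89% of all rows higher and 3.00% lower, and the range was -0.13 to 0.05. Across all roles, sham replicate 3 was the lowest sham rat in 22 of 41 members. The same rat had the highest astrocyte score of the sham group, and TBI replicate 3 the lowest of the TBI group.

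Other genes of the same pathways were read from a list of 94 genes, of which 84 were tested. In TBI, 7 of the 84 (8.33%) were higher at an unadjusted p under 0.05, beside 4.89% of all rows, 0 were lower, and 0 passed after adjustment. Their median log2 fold change was -0.02, beside -0.01 over all rows. Hmox1, the haem-degrading stress enzyme, was at 3.00, 2.59, 4.29, 2.99 and 3.31 CPM in sham rats and 6.03, 5.64, 3.17, 4.93 and 5.08 CPM in TBI rats. Apart from TBI replicate 3, each TBI rat lay above every sham rat, and the log2 fold change was 0.61 ± 0.17 (SE, edgeR unadjusted p = 0.00197, adjusted p = 0.478). Creb3l1, an ER-bound transcription factor, had a log2 fold change of 0.48 ± 0.13 (SE, edgeR unadjusted p = 0.00206). Both kept an unadjusted p under 0.05 in all 20 alternative fits. Both are also on the study's list for this model, made on rats of this series. The edgeR p values of 0.00197 and 0.00206 did not reach that list's cut-off of 0.001.

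Hspb1 encodes HSP27, another small heat shock protein and is on the same list of the study. It was at 7.84, 7.15, 12.6, 6.66 and 7.998 CPM in sham rats and 16.6, 15.4, 7.78, 11.4 and 16.5 CPM in TBI rats. Sham replicate 3 lay above TBI replicates 3 and 4, and TBI replicate 3 lay inside the sham range. The log2 fold change was 0.67 ± 0.23 (SE, edgeR unadjusted p = 0.0155, adjusted p = 0.548), and this p did not reach the cut-off of that list. Atf3, a stress-induced transcription factor, had the largest log2 fold change of the list, 0.87 ± 0.32 (SE, edgeR unadjusted p = 0.0146), from means of 0.441 and 0.862 CPM. It did not pass without TBI replicate 1 (edgeR unadjusted p = 0.0558).

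Edem2, which marks misfolded glycoproteins for removal from the ER, was at 12.3, 11.2, 12.4, 11.9 and 11.6 CPM in sham rats and 13.8, 13.6, 13.1, 13.9 and 14.1 CPM in TBI rats. It was the only one of the 84 (1.19%) whose groups did not overlap, beside 0.923% of all rows. The exact permutation p of 0.00794, the smallest possible, follows from groups that do not overlap and adds nothing to that. Its log2 fold change was 0.20 ± 0.08 (SE, edgeR unadjusted p = 0.0222, adjusted p = 0.563), and the unadjusted p was 0.0541 without sham replicate 2. The remaining genes were Atf5, a factor of the mitochondrial and ER stress responses, at 0.29 ± 0.11 (SE), and Serpinh1, the collagen chaperone of the ER, at 0.22 ± 0.09 (SE). Atf5 did not pass without sham replicate 1 (0.0591), sham replicate 2 (0.0541) or TBI replicate 5 (0.0524). It was at 0.43 with the ribosomal RNA share as a covariate (edgeR unadjusted p = 0.00703). Without the sham rats rich in ribosomal RNA it was at 0.41 (edgeR unadjusted p = 0.00211). Serpinh1 did not pass without sham replicate 1 (0.0552), sham replicate 2 (0.0741), sham replicate 4 (0.0768) or TBI replicate 2 (0.113). Hspb1, Atf3, Edem2 and Serpinh1 also lost their calls with the ribosomal RNA share as a covariate, with edgeR unadjusted p values of 0.120, 0.0794, 0.0966 and 0.135, and without the sham rats rich in ribosomal RNA. The number of pathway genes called was 4 of 84 (4.76%) in both of these fits and without sham replicate 2, beside 4.42%, 5.61% and 5.19% of all rows. It was 11 (13.1%) without sham replicate 3, beside 11.5%. Of other marker lists, 3 of 6 ependymal and choroid markers (Foxj1, Rsph1 and Folr1) and 3 of 6 meningeal markers (Col1a1, Col1a2 and Igf2) were higher at an unadjusted p under 0.05, beside 4.89% of all rows. The other ependymal and choroid markers, Ttr, Kl and Aqp1, had log2 fold changes of 0.33, 0.10 and -0.02, and the other meningeal markers, Dcn, Lum and Pdgfra, had 0.91, -0.95 and -0.14. None of the 6 neuronal and 7 oligodendrocyte markers was called. Their part in these values was not tested.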

How the data were processed

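Poly-A selected RNA of 10 rats was read as single reads of 36 bases. The authors aligned the reads with BWA and deposited raw counts per RefSeq RNA record, with no normalization. The submitters' processing notes name the rn4 assembly, and the study's methods describe counting over Ensembl transcripts, which was not reconciled with the RefSeq rows. Of 32041 RNA rows, 54.2% were given a symbol from RefSeq gene tables. Isoform rows share reads, and whether counting used strand is not given in the sources used here. The 2 rows that name no RNA, an empty entry and the unmapped reads (12.8% to 26.1% of reads), were kept out. Groups come from the labels, whose rat numbers do not pair sham with TBI rats.

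Rows with at least 44 counts in total, the 30th percentile of row totals, were tested with edgeR 4.0.16 in R 4.3.3 (quasi-likelihood F test, robust, TMM), with Benjamini-Hochberg adjustment over 22431 rows. One row per symbol, that with the highest mean count, stood for a gene. Standard errors were taken from the log2 fold change and its F statistic, and intervals are 2 standard errors wide on each side. Exact permutation tests used log2 CPM (prior count 2) over 252 splits, and correlations 100000 permutations (scipy 1.17.1). Of 10 planned pairs, 3 held a gene with no tested row and were not run. P values set the difference between the groups against the spread between these rats. Alternatives included DESeq2 1.42.0, other scalings, filters and covariates, and leaving out each rat. Named genes were the members at an unadjusted p under 0.05, key genes of each role, and up to 10 pathway genes with the smallest p; Hspa1a, Hsp90ab1, Stip1, Hsf2, Eif2ak3 and Atf6 and others of a role were added to complete it. The members, gene lists and pairs were chosen with earlier results of these data known. The fits were tested on simulated data. Figures were drawn with matplotlib 3.10.9.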

Additional observations from a re-analysis of the deposited data

Results flagged for a closer look

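Of 54 groups of 5 values tested with Dixon's criterion (27 named genes in 2 groups), 4 held a rat far from the rest, and chance gives about 2.7. TBI replicate 4 had the highest Hspa8 at 170.1 CPM, with the other TBI rats from 161.0 to 162.6 CPM. Sham replicate 3 had the lowest Hsph1 at 195.7 CPM, with the other sham rats from 229.6 to 238.5 CPM. TBI replicate 1 had the lowest Calr at 348.7 CPM, with the other TBI rats from 370.7 to 373.5 CPM. Sham replicate 3 had the highest Hspb1 at 12.64 CPM, with the other sham rats from 6.662 to 7.998 CPM.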

How the results depend on the processing

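Counts per tested member ran from 735 to 312487 over all rats, and with a median standard error of 0.08 on the log2 scale small changes were not detectable. The number of members at an unadjusted p under 0.05, 4 as reported, was 2 with the ribosomal RNA share as a covariate, 7 without sham replicate 3 and TBI replicate 3 together (17.1%, beside 11.6% of all rows), and from 2 to 9 when 1 rat was left out. Those replicates were left out together because earlier results had placed each nearer to the other group, so a higher count without them follows from how they were chosen. In that fit 1 member, Hspb8, passed an adjusted p of 0.05 (0.0256, with 320 rows passing), and in all other fits 0 did. The pathway count, 7 as reported, was 12 with the total count outside ribosomal RNA (14.3%, beside 12.9% of all rows), 4 with the ribosomal RNA share as a covariate (4.76%, beside 4.42%), 4 without the ribosome-rich sham rats (4.76%, beside 5.61%), and 4 to 11 when 1 rat was left out. Of the 7 planned pairs, 1 passed an adjusted p of 0.05 by Pearson's r, and 0 did by Spearman's rho, with group means removed, without the ribosome-rich sham rats or without the 2 farthest rats. No member's groups failed to overlap under either set of size factors.

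Hspb8 ranged from 0.33 to 0.55 and Bag3 from 0.33 to 0.51 on the log2 scale when 1 rat was left out. Some members changed sign between fits. Among them were Hsph1, Hspd1 and Xbp1, at -0.11, -0.13 and -0.13 in edgeR's quasi-likelihood fit to all rats. With the total count outside ribosomal RNA, which shifts all rows upward, the log2 fold changes were Hsph1 0.0449, Hsp90aa1 0.0557, Hspd1 0.0281, Hspa5 0.154, Hsp90b1 0.101, Calr 0.145, Ern1 0.0373, Xbp1 0.0259 and Atf4 0.124. With no filter, Hspa5 was at 0.00699. With the ribosomal RNA covariate, Hspa8 was at -0.0865, Hspa5 at 0.0125 and Calr at 0.0381, and without the ribosome-rich sham rats they were at -0.0614, 0.0163 and 0.0356. When 1 rat was left out, Hspa5 ranged from -0.0167 to 0.0150, Calr from -0.0436 to 0.00952, Hspa8 from -0.0583 to 0.0539 and Atf4 from -0.102 to 0.0415. None of the values in this list was past a threshold. Without sham replicate 3, however, Hsph1 and Hspd1 were lower in TBI (edgeR unadjusted p = 0.0412 and 0.041). The cause of the changes of sign was not tested. No paired analysis was possible because the rat numbers of the groups are not shared.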

Other observations

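The 8 subunits of the cytosolic chaperonin, the ring that folds actin and tubulin, all had log2 fold changes below 0, from -0.16 (Cct2) to -0.02 (Cct4). None passed at an unadjusted p under 0.05 in edgeR's quasi-likelihood test on all rats, beside 3.00% of all rows lower. The intervals of 2 standard errors of the 8 subunits ran from 0.807-fold to 1.09-fold. With the total count outside ribosomal RNA, 1 of the 8 was below 0 and all 8 were below the median of all rows. Cct2 came closest (unadjusted p = 0.0562), and it passed in DESeq2, without sham replicate 3, without sham replicate 5, and without sham replicate 3 and TBI replicate 3 together. Tcp1 passed without sham replicate 3. Of other targets of the PERK and ATF4 branch, Atf3 and Atf5 were higher at an unadjusted p under 0.05 in edgeR (0.0146 and 0.0195), beside 4.89% of all rows. Ppp1r15a, Sesn2 and Nupr1 did not pass, with log2 fold changes of 0.12, 0.06 and 0.25 (edgeR unadjusted p = 0.239, 0.476 and 0.445). Asns, the asparagine synthetase, was at 42.3 CPM ± 6.97 (SD) in the 5 sham rats and 37.8 CPM ± 3.55 (SD) in the 5 TBI rats. It passed in 3 alternative fits: with the ribosomal RNA share as a covariate, without the ribosome-rich sham rats and without sham replicate 5. Chac1, a glutathione-degrading enzyme, averaged 8.25 CPM ± 0.724 (SD) in the 5 sham rats and 7.83 CPM ± 1.38 (SD) in the 5 TBI rats. These groups of genes were picked from the pathway list after its values had been seen.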
